A study of Mus musculus with 24 samples.

Results

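Notch signaling was followed through 10 genes in the transcriptomes of optically exercised 2D muscle tissues. They were the receptors Notch1, Notch2, and Notch3, the ligands Jag1, Jag2, and Dll1, the target genes Hes1, Hey1, and Heyl, and Numb, an inhibitor of the receptors. The 10 genes were chosen by name, and all 10 were found among the 56941 genes measured and passed the filter on low counts, which kept 13318 genes. C2C12, an established line of mouse myoblasts that can form contractile fibers, was the source of all tissues, and in every condition, control included, the cells carried the genotype ChR2::tdTomato. ChR2 is an ion channel opened by blue light, and tdTomato is a fluorescent reporter. All tissues were differentiated on fibrin gel in medium with inactivated horse serum and the growth factor IGF-1. Stimulated tissues received pulsed light for 30 min each day at 1, 4, or 10 Hz, and control tissues were left unstimulated, with 6 libraries in each of the 4 conditions. All tissues derive from 1 cell line, so the replicates are separate tissues and not separate animals.

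Notch signaling passes between neighboring cells. A Jagged or Delta-like ligand on one cell binds a Notch receptor on the next, an ADAM protease and then the γ-secretase complex cut the receptor, and the freed intracellular domain enters the nucleus. There it joins the DNA-binding protein RBPJ and a Mastermind coactivator and switches on Hes and Hey genes, which encode transcriptional repressors. In skeletal muscle the pathway is known for keeping satellite cells quiescent and for holding back the differentiation of myoblasts, and Numb is known for directing Notch receptors to degradation.

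Target genes are the members that the nuclear complex is known to act on, and the stretches in front of the transcription starts of Hes1 and Heyl are shown for that reason. They were read from the GRCm39 genome upstream of the start of each canonical GENCODE transcript, 5′ to 3′ on the strand of the gene, and bases annotated as untranslated region were left out. Capitals mark TGGGAA, the core letters of the motif that RBPJ binds.
Hes1: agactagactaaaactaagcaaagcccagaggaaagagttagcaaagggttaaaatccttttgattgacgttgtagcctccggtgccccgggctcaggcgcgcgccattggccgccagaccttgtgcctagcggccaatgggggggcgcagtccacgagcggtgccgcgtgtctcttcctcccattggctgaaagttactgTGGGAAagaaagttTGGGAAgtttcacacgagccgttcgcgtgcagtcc
Heyl: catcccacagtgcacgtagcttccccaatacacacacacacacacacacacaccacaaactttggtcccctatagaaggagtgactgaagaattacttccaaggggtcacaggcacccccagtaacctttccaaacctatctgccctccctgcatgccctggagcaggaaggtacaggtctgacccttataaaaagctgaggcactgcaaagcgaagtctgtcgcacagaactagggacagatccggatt
The Hes1 stretch (chr16:29883877-29884126, plus strand, 250 bases) held 2 matches on the strand of the gene, which begin 49 and 35 bases before the start. It lies inside the annotated gene, because other Hes1 transcripts start further upstream. The Heyl stretch (chr4:123127099-123127348, plus strand, 250 bases) held 0 matches. On both strands, TGGGAA was found in 22.7% of 21770 windows of 250 bases in front of protein-coding genes, from which untranslated bases were not removed. The longer form GTGGGAA, which contains TGGGAA, was found in 5.48% of windows. CACNAG, the N-box letters that Hes proteins are known to bind, were found in 36.5% of windows, with 3 matches in Hes1. These matches describe letters only, the stretches of the other members are not reported here, and no target is set apart by them.

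Total counts ranged from 4.09 to 15.2 M (mega) per library. They were 4.195 to 7.65 M in control, 4.09 to 15.2 M at 1 Hz, 7.55 to 11.5 M at 4 Hz, and 5.41 to 12.1 M at 10 Hz. The ranges of control and 4 Hz thus barely overlapped. All 10 genes of a skeletal muscle marker list passed the filter, and their summed level was 6547 to 8316 counts per M (CPM) in control, 9392 to 12920 CPM at 1 Hz, 9598 to 14740 CPM at 4 Hz, and 7030 to 10400 CPM at 10 Hz. Of 8 endothelial markers 0 passed the filter, and Tie1 and Emcn were at 0 in all 24 libraries. Of the 8 immune markers, Ptprc was at 0 in 23 libraries, and Cd68, which other cells also express, carried the summed level of 70.5 to 117 CPM. Among markers of smooth muscle and pericytes, which depend on Notch3, Rgs5 was at 0 in all libraries, whereas Pdgfrb and Cspg4 were measured at up to 62.9 and 67.7 CPM. Summed over the 7 genes of that list other than Notch3, the level was 81.5 to 102 CPM in control, 122 to 176 CPM at 1 Hz, 121 to 212 CPM at 4 Hz, and 93.0 to 132 CPM at 10 Hz. Mustn1 was the largest part of this sum in each condition, with means of 58.1, 75.25, 73.7, and 75.1 CPM in the same order. Myh11 of this list reached at most 1.23 CPM in a library. In the satellite cell list Pax7 was detected in every library at a mean of 1.86 CPM in control, 3.72 CPM at 1 Hz, 3.84 CPM at 4 Hz, and 1.99 CPM at 10 Hz. Myf5 of the same list was lower at 1 and 4 Hz than in control, with means of 21.1, 18.3, 13.8, and 23.9 CPM in the same order. Calcr was at 0 in all libraries. The list's summed level, without Heyl, was 959 to 1248 CPM in control, 1324 to 1686 CPM at 1 Hz, 1218 to 1615 CPM at 4 Hz, and 1130 to 1381 CPM at 10 Hz. Itga7 was the largest part of this sum, with means of 624, 942, 815, and 644 CPM in the same order. Fibroblast markers summed to 264 to 579 CPM in control (median 345), 423 to 661 CPM at 1 Hz (median 522), 314 to 585 CPM at 4 Hz (median 407), and 279 to 385 CPM at 10 Hz (median 310), with Tcf21 at 0 in 23 libraries. Col3a1 made up most of this sum, with means of 300, 451, 364, and 261 CPM in the same order. Col1a1 had means of 18.8, 22.7, 25.2, and 16.9 CPM, and Dcn, lower at 1 and 4 Hz than in control, 35.9, 32.8, 23.6, and 32.6 CPM. The 8 proliferation genes summed to 27.0 to 52.1 CPM over all libraries. The part of these markers in the results below was not tested. In bulk RNA, fewer cells of a type and less RNA per cell cannot be told apart.

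A measure of RNA selection also differed between conditions and is given before the results. Libraries were made from poly(A)-selected RNA, and some of low input, which the labels do not name, by ribodepletion. The summed level of 31 small RNAs without a poly(A) tail, called the small RNA share here, was 98.8, 134, and 169 CPM in control (lowest, median, and highest of 6), 15.6, 20.8, and 70.2 CPM at 1 Hz, 19.5, 25.0, and 51.0 CPM at 4 Hz, and 38.5, 105, and 274 CPM at 10 Hz. No library at 1 or 4 Hz reached the lowest control library, while the 10 Hz range enclosed the control range. For 1 Hz and 4 Hz against control, stimulation and this share cannot be told apart. The calls of the 10 genes and of the named pathway genes are therefore also described with the log2 share as a covariate in the fit. How many of all genes passed in that fit is not reported here, so a lost call is not read as particular to these genes.

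The first question was which of the 10 genes differed with stimulation frequency. Levels of single genes are given as CPM with library sizes scaled by the trimmed mean of M-values (TMM), and p-values are from edgeR's quasi-likelihood test with Benjamini-Hochberg adjustment over the 13318 genes. A gene passed at an adjusted p below 0.05. Across the 6 comparisons, 17 of 60 tests on the 10 genes passed, while 4.89% to 39.4% of all genes tested passed in a comparison. The 17 calls belonged to 5 genes, namely Notch1, Notch3, Jag1, Hes1, and Numb. Notch2, Jag2, Dll1, Hey1, and Heyl passed in none of the 6 comparisons, and values for each are given with their role.

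At 1 Hz, Jag1, Numb, and Notch1 rose against control and Hes1 fell, so 4 of 10 genes passed, where 35.4% of all genes tested did. The median log2 fold change of the 10 genes was 0.28, against -0.0072 over all genes. Of all genes, 18.1% rose and 17.3% fell. At 4 Hz, 1 of 10 passed, Hes1, which fell, while 39.4% of all genes passed (19.2% up and 20.2% down). At 10 Hz, 1 of 10 passed, Jag1, which fell, while 4.89% of all genes passed (2.67% up and 2.22% down). For the 10 genes together the median log2 fold change stood at 0.14 for 4 Hz and 0.0082 for 10 Hz, against -0.014 and -0.0064 over all genes. These 3 comparisons share the 6 control libraries.

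Between frequencies, 3 of 10 genes passed at 4 Hz against 1 Hz, where 12.3% of all genes did (5.71% higher and 6.56% lower), and Jag1, Notch3, and Numb were each lower at 4 Hz. At 10 Hz against 1 Hz 5 of 10 passed, where 36.3% of all genes did (17.7% higher and 18.5% lower), with Jag1, Notch3, Numb, and Notch1 lower and Hes1 higher at 10 Hz. At 10 Hz against 4 Hz 3 of 10 passed, where 22.8% of all genes did (10.9% higher and 11.9% lower), with Jag1 and Numb lower and Hes1 higher at 10 Hz. The median log2 fold changes of the 10 genes were -0.10, -0.28, and -0.05 in these comparisons, against -0.0049, 0.012, and 0.010 over all genes. The study also required an absolute log2 fold change above 0.5. Under that rule 2 of 10 genes passed at 1 Hz against control (18.3% of all genes), 0 at 4 Hz (20.1%), 0 at 10 Hz (1.86%), 2 at 4 Hz against 1 Hz (3%), 4 at 10 Hz against 1 Hz (17.9%), and 0 at 10 Hz against 4 Hz (11%).

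**Figure D1:**
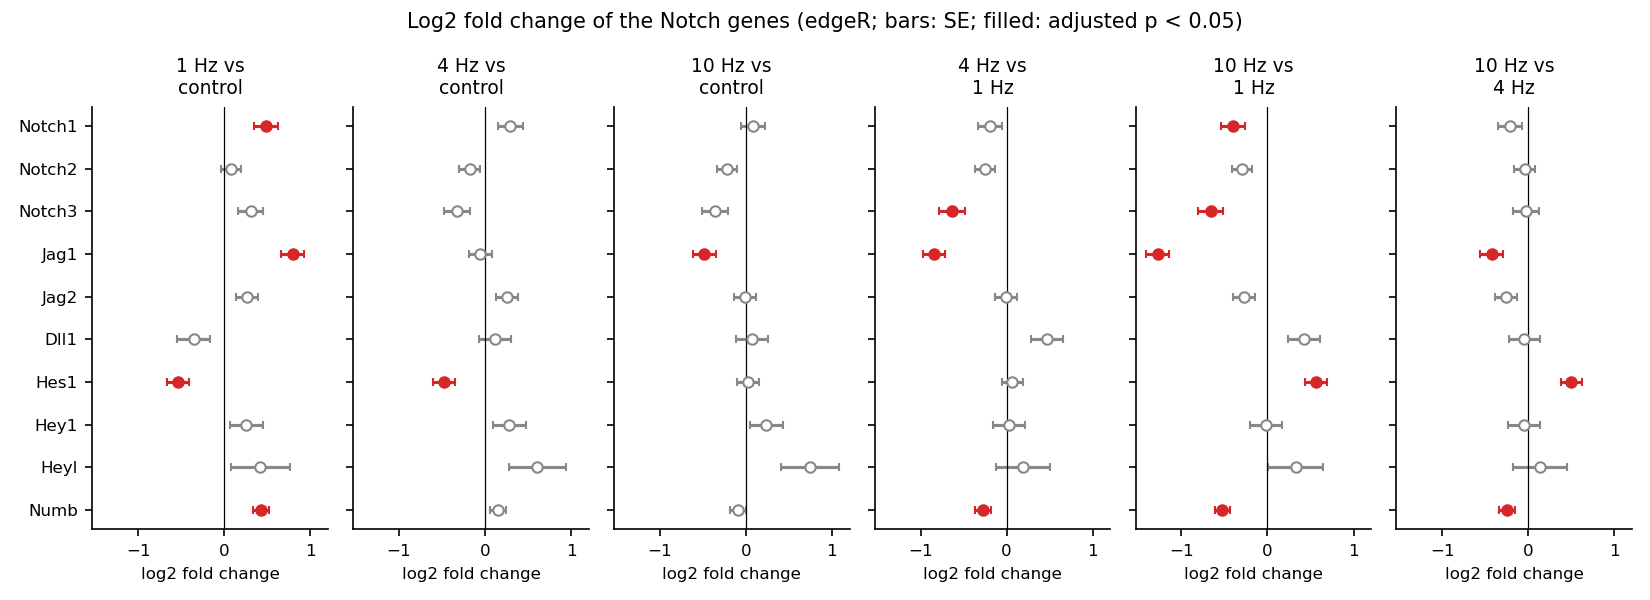
Log2 fold change (x axis) of each of the 10 Notch genes (y axis) in the 6 comparisons, first-named condition over the second, from edgeR with bars of 1 SE, and red filled points at an adjusted p below 0.05. Jag1 has the largest change, -1.28 at 10 Hz vs 1 Hz, and Heyl has the widest bars.

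Complete separation of the 6 against 6 libraries was counted as well. At 1 Hz against control it held for 2 of 10 genes, Jag1 and Numb, and for 13.1% of all genes. At 4 Hz against control it held for Hes1 alone, 1 of 10, against 16.6% of all genes, and at 10 Hz against control for 0 of 10, against 2.58%. Jag1 was the 1 gene of 10 with separated groups at 4 Hz against 1 Hz (5.7% of all genes) and at 10 Hz against 4 Hz (6.2%). Between 10 and 1 Hz the groups of Jag1 and Numb, 2 of 10, did not overlap, as for 13.2% of all genes.

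**Figure D2:**
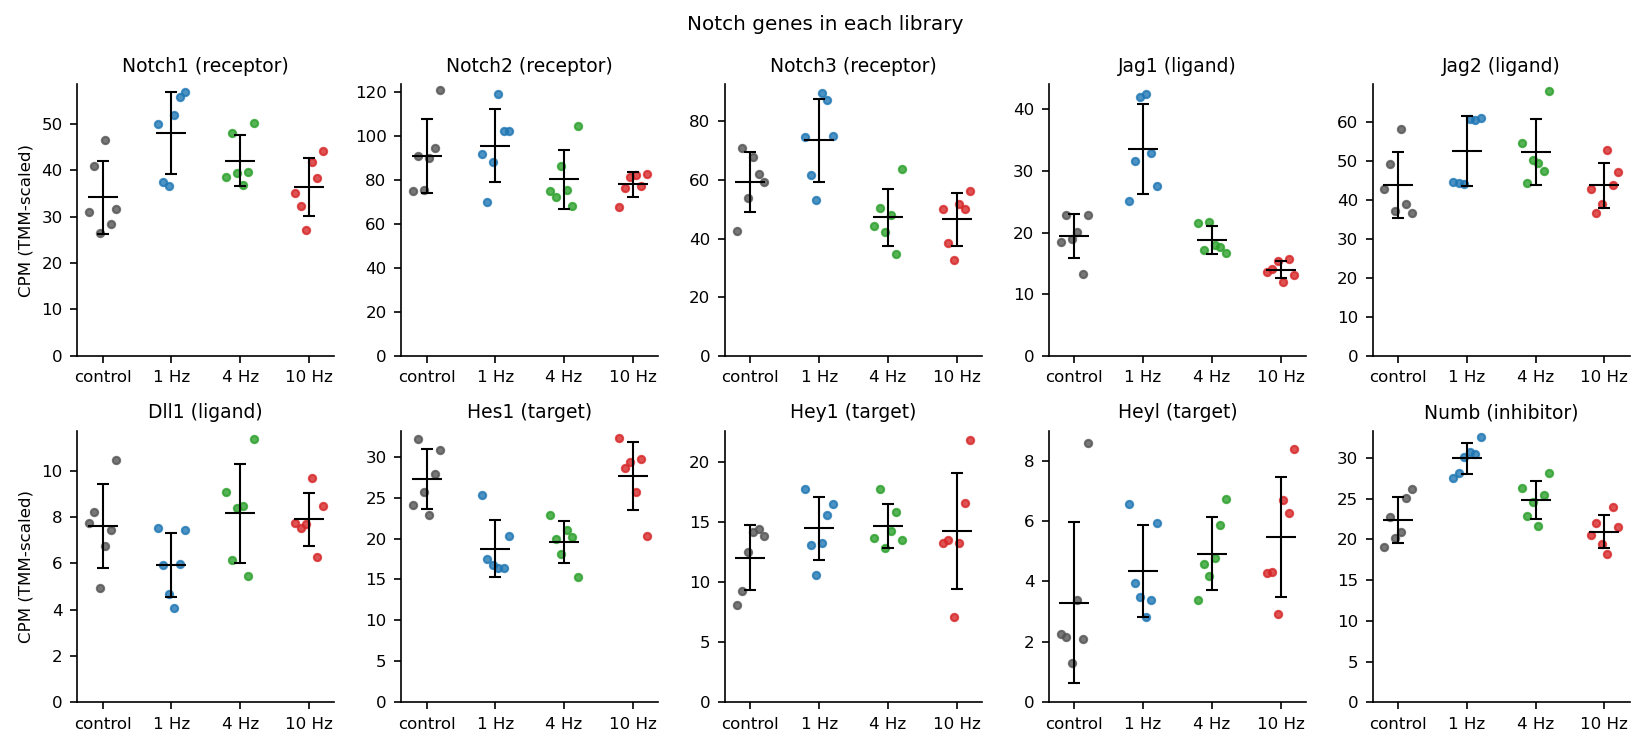
TMM-scaled CPM (y axis, from 0, with a scale of its own in each panel) of the 10 Notch genes in each of the 24 libraries by condition (x axis), with points for libraries and bars for the mean ± SD (n = 6). All 6 Jag1 and Numb libraries at 1 Hz lie above every control library, and all 6 Hes1 libraries at 4 Hz lie below every control library.

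Receptors are the entry point of the pathway, and Notch1 and Notch3 differed between conditions. Notch1 (chromosome 2, 26347915 to 26406675, minus strand, 34 exons in the canonical transcript) encodes a receptor found in many tissues. In control its lowest, median, and highest levels were 26.4, 31.3, and 46.4 CPM, and at 1 Hz they were 36.5, 50.9, and 56.7 CPM. Of the 6 libraries at 1 Hz, 4 lay above every control library. Notch1 rose by 0.49 ± 0.14 (log2, SE) at 1 Hz against control (adjusted p = 0.0096). The 4 Hz libraries had 36.8, 39.5, and 50.0 CPM, 0.30 ± 0.14 (log2) against control (adjusted p = 0.10), which passed without control replicate 4 (0.41, adjusted p = 0.024). At 10 Hz the levels were 27.1, 36.7, and 44.1 CPM, a log2 fold change of -0.40 ± 0.14 from 1 Hz (adjusted p = 0.026). The groups at 1 and 10 Hz overlapped, with 3 of the 6 libraries at 10 Hz below every library at 1 Hz. The difference between 10 and 1 Hz missed the threshold when any 1 of 5 libraries was left out (1 Hz replicates 4, 5, and 6 and 10 Hz replicates 2 and 3, adjusted p of 0.054 to 0.074). By limma on log2(TPM + 1), neither Notch1 call passed (adjusted p = 0.098 and 0.090). An antisense long noncoding RNA, 0610009E02Rik, shares 1996 exon bases with Notch1 and had a mean of 2.21 CPM.

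Notch3 (chromosome 17, 32339794 to 32385893, minus strand, 33 exons) encodes a receptor known from vascular smooth muscle and from myogenic cells, where it can restrain differentiation. Its levels were 42.6, 60.6, and 70.8 CPM in control, 53.2, 74.8, and 89.6 CPM at 1 Hz, 34.9, 46.0, and 63.7 CPM at 4 Hz, and 32.5, 50.0, and 56.0 CPM at 10 Hz. The 1 Hz libraries were the high group, and 5 of 6 libraries at 4 Hz and 5 of 6 at 10 Hz lay below all of them. Notch3 was lower than at 1 Hz both at 4 Hz (-0.64 ± 0.15, adjusted p = 0.0060) and at 10 Hz (-0.66 ± 0.15, adjusted p = 0.0012). Against control the values were 0.31 ± 0.15 at 1 Hz (adjusted p = 0.11), -0.33 ± 0.15 at 4 Hz (adjusted p = 0.082), and -0.35 ± 0.15 at 10 Hz (adjusted p = 0.17). So Notch3 differed between frequencies, while no frequency passed the test against control. This last count rests on single libraries, since Notch3 passed at 1 Hz without 1 Hz replicate 3 (0.39), and at 4 Hz without control replicate 1 (-0.40) or 4 Hz replicate 6 (-0.42). Scaling by total count also gave a call at 4 Hz (-0.43, adjusted p = 0.025).

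Notch2 (chromosome 3, 97920800 to 98057677, plus strand, 34 exons) encodes a receptor closely related to Notch1. Its CPM had means (± SD, n = 6) of 91.2 ± 16.8 in control, 95.8 ± 16.5 at 1 Hz, 80.4 ± 13.4 at 4 Hz, and 78.1 ± 5.65 at 10 Hz. Its groups overlapped in all 6 comparisons. The log2 fold change furthest from 0 was -0.30 ± 0.12 at 10 Hz against 1 Hz, at an adjusted p of 0.050 that did not pass. That comparison passed without 1 Hz replicate 2 (-0.37, adjusted p = 0.014) or 1 Hz replicate 3 (-0.32, adjusted p = 0.048), and 4 Hz against 1 Hz passed without 4 Hz replicate 6 (-0.34, adjusted p = 0.046). At 10 Hz against 1 Hz Notch2 also passed by DESeq2 (adjusted p = 0.043), the tool of the study, with no count filter (adjusted p = 0.047), and with only the 12 libraries compared (adjusted p = 0.033), at -0.31 to -0.29. By limma on log2(TPM + 1) it passed at 4 Hz against control (-0.33, adjusted p = 0.033), but not without the minimum mean of 1 TPM. The fourth receptor, Notch4, known from endothelium, was not tested, with at most 3.35 CPM in a library.

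Ligands present the signal, and Jag1 gave the largest changes of the 10 genes. Jag1 (chromosome 2, 136923373 to 136958693, minus strand, 26 exons) encodes a transmembrane Jagged ligand. Its levels were 13.2, 19.5, and 22.8 CPM in control, 25.0, 32.3, and 42.5 CPM at 1 Hz, 16.7, 17.8, and 21.7 CPM at 4 Hz, and 12.01, 13.8, and 15.6 CPM at 10 Hz. Every library at 1 Hz lay above every library of the other conditions, and every library at 10 Hz lay below every library at 4 Hz. Jag1 rose by 0.80 ± 0.13 (log2, SE) at 1 Hz against control, a 1.74-fold increase (adjusted p = 6.8e-05). It did not pass at 4 Hz (-0.05 ± 0.13, adjusted p = 0.78), and at 10 Hz it fell by 0.48 ± 0.14 against control (adjusted p = 0.039). Between frequencies Jag1 was lower at 4 Hz than at 1 Hz (-0.85 ± 0.13, adjusted p = 0.00016), and lower at 10 Hz than at 1 Hz by 2.42-fold (-1.28 ± 0.13, adjusted p = 2.4e-07). It was also lower at 10 Hz than at 4 Hz (-0.43 ± 0.13, adjusted p = 0.022). Jag1 therefore differed in 5 of the 6 comparisons, with the order 1 Hz, then control and 4 Hz, then 10 Hz.

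The smaller Jag1 differences rested on few libraries. The call at 10 Hz against control was lost when any 1 of 9 of the 12 libraries was left out (control replicates 1, 2, 3, 4, and 6 and 10 Hz replicates 1, 2, 4, and 6, adjusted p of 0.051 to 0.12), with the log2 fold change between -0.56 and -0.42. It was also lost by limma on log2(TPM + 1) (adjusted p = 0.11). The difference between 10 and 4 Hz was lost without 4 Hz replicate 3 (-0.39, adjusted p = 0.052) and with counts thinned to the smallest library (-0.37, adjusted p = 0.11). By limma on log2(TPM + 1) that difference did not pass either (-0.23, adjusted p = 0.29).

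Jag2 (chromosome 12, 112871421 to 112893437, minus strand, 26 exons), the second Jagged ligand, did not pass in any comparison of counts. Mean CPM (± SD, n = 6) was 43.9 ± 8.47 in control, 52.7 ± 9.04 at 1 Hz, 52.4 ± 8.39 at 4 Hz, and 43.8 ± 5.83 at 10 Hz. The log2 fold changes against control were 0.26 ± 0.13 at 1 Hz (adjusted p = 0.11), 0.25 ± 0.13 at 4 Hz (adjusted p = 0.12), and -0.0083 at 10 Hz (adjusted p = 0.98). Transcripts per M (TPM), which are scaled by the transcript length estimated in each library, gave another answer. By limma on log2(TPM + 1) Jag2 passed at 1 Hz (0.55, adjusted p = 0.042) and at 4 Hz (0.52, adjusted p = 0.041). Those fits kept genes with a mean of at least 1 TPM, and without that filter Jag2 passed at neither frequency. The count per TPM of Jag2, a measure of that estimated length, varied between libraries with an SD of 0.28 (log2), against a median of 0.090 over 12958 genes, and was highest in control. Without control replicate 4 Jag2 also passed in the counts at 1 Hz (0.37) and 4 Hz (0.36), and without 10 Hz replicate 4 it passed at 10 Hz against 1 Hz (-0.33).

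Dll1 (chromosome 17, 15587276 to 15597134, minus strand, 11 exons), a Delta-like ligand with an important part in myoblast maintenance during development, had the lowest CPM of the 3 ligands among the 10 genes. Its lowest and highest libraries were 4.94 and 10.5 CPM in control, 4.09 and 7.52 CPM at 1 Hz, 5.47 and 11.3 CPM at 4 Hz, and 6.26 and 9.69 CPM at 10 Hz. No comparison passed, and the log2 fold changes furthest from 0 were 0.47 ± 0.19 at 4 Hz against 1 Hz (adjusted p = 0.094) and 0.43 ± 0.19 at 10 Hz against 1 Hz (adjusted p = 0.074). The latter passed without 1 Hz replicate 1 (0.50) or 1 Hz replicate 6 (0.51), with scaling by total count (0.47), and with a minimum mean of 5 CPM (0.46). That comparison also passed with the replicate number as a block in the fit (0.44). Dll1 values are uncertain, because its exons share 1369 bases with Fam120b on the opposite strand, which had a mean of 76.2 CPM. The study names a directional library kit, but whether the counting used strand is not given in the sources used here.

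Per transcript length, Notch2 and Notch3 made up most of the receptor messages and Jag2 most of the ligand messages in every condition. As a share of the summed TPM of the 3 receptors, Notch2 took 43.9 ± 4.99% in control, 39.1 ± 3.03% at 1 Hz, 40.9 ± 2.42% at 4 Hz, and 43.5 ± 5.30% at 10 Hz (SD, n = 6). Notch1 took 18.7 ± 3.54%, 21.6 ± 1.52%, 25.4 ± 3.85%, and 22.5 ± 1.66% in the same order. The Notch3 share was 37.4 ± 3.10%, 39.3 ± 2.55%, 33.7 ± 5.24%, and 34.0 ± 3.89%. Among the ligands, the Jag2 share was 64.1 ± 7.14% in control, 64.7 ± 6.27% at 1 Hz, 73.8 ± 3.57% at 4 Hz, and 71.4 ± 4.96% at 10 Hz. The Jag1 share was 20.1 ± 4.77%, 24.2 ± 6.91%, 13.8 ± 2.88%, and 13.6 ± 4.16%, and the Dll1 share was 15.8 ± 5.28%, 11.2 ± 6.38%, 12.4 ± 1.62%, and 14.9 ± 4.07%. The summed receptor TPM was 29.4 ± 5.50 in control, 33.0 ± 5.49 at 1 Hz, 24.4 ± 4.63 at 4 Hz, and 23.7 ± 2.83 at 10 Hz. Ligands summed to 26.6 ± 7.20, 38.6 ± 6.79, 33.3 ± 7.57, and 27.6 ± 3.91 TPM. These shares are descriptions with no test. They rest on the transcript length estimated in each library, and the count per TPM varied with an SD of 0.42 (log2) for Dll1 and 0.28 for Jag2, against a median of 0.090 over all genes. Dll1 had a lower mean CPM at 1 Hz than in control (5.94 against 7.60), while its mean TPM was 4.25 against 4.135. Differences in share between conditions are therefore not told apart from differences in the estimated length.

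**Figure D3:**
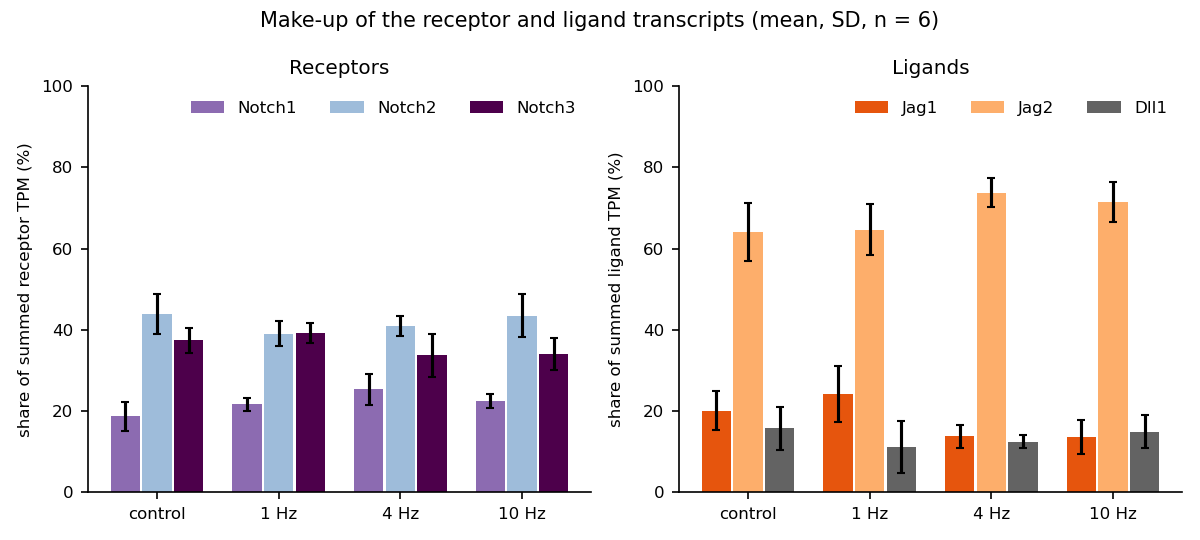
Share (y axis, percent) of each receptor in the summed receptor TPM (left) and of each ligand in the summed ligand TPM (right) by condition (x axis), as bars for the mean with error bars for the SD (n = 6). Jag2 holds 64.1 to 73.8% of ligand TPM in all 4 conditions, and Notch2 and Notch3 together hold most of the receptor TPM.

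Target genes are read as the output of the pathway, and Hes1 was the only one of the 3 that passed. Hes1 (chromosome 16, 29882134 to 29886643, plus strand, 4 exons) encodes a repressor that is known to oscillate and to act on its own promoter, and its stretch with 2 TGGGAA matches is printed above. Its levels were 22.9, 26.8, and 32.2 CPM in control, 16.4, 17.1, and 25.2 CPM at 1 Hz, 15.3, 20.1, and 22.9 CPM at 4 Hz, and 20.3, 28.9, and 32.3 CPM at 10 Hz. The 1 and 4 Hz libraries were low and the control and 10 Hz libraries high, with 5 of 6 libraries at 1 Hz and 6 of 6 at 4 Hz below every control library. Hes1 fell by 0.54 ± 0.13 (log2, SE) at 1 Hz (adjusted p = 0.0018) and by 0.47 ± 0.12 at 4 Hz (adjusted p = 0.0038) against control. At 10 Hz the log2 fold change against control was 0.02 ± 0.12 (adjusted p = 0.94), and 10 Hz was higher than 1 Hz by 0.57 ± 0.12 (adjusted p = 0.00096) and than 4 Hz by 0.50 ± 0.12 (adjusted p = 0.0051). The 1 and 4 Hz groups differed by 0.07 ± 0.13 (adjusted p = 0.78).

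With the small RNA share as a covariate none of the 4 Hes1 differences passed, and the log2 fold changes were -0.23 at 1 Hz (adjusted p = 0.75) and -0.16 at 4 Hz (adjusted p = 0.72) against control, 0.29 at 10 Hz against 1 Hz (adjusted p = 0.41), and 0.22 at 10 Hz against 4 Hz (adjusted p = 0.89). Light and the share cannot be told apart for Hes1 at 1 and 4 Hz against control.

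**Figure D4:**
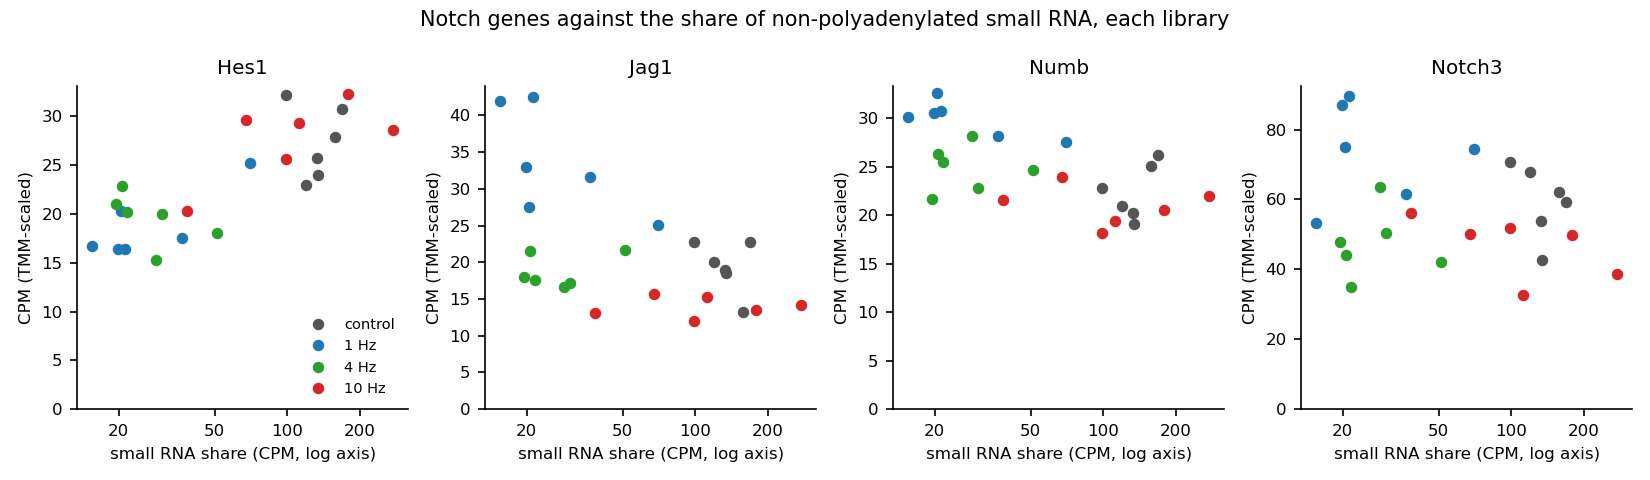
TMM-scaled CPM (y axis) of Hes1, Jag1, Numb, and Notch3 against the summed CPM of 31 non-polyadenylated small RNAs (x axis, log scale), with 1 point for each of the 24 libraries, colored by condition. The control libraries, at 98.8 to 169 CPM of small RNA, do not overlap those at 1 Hz (15.6 to 70.2 CPM) or 4 Hz (19.5 to 51.0 CPM), and Jag1 at 1 Hz lies above all other conditions.

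Hey1 (chromosome 3, 8726956 to 8732385, minus strand, 5 exons) and Heyl (chromosome 4, 123127349 to 123143682, plus strand, 5 exons) encode related repressors of the Hey group. Hey1 CPM had means (± SD, n = 6) of 12.04 ± 2.70 in control, 14.5 ± 2.61 at 1 Hz, 14.6 ± 1.82 at 4 Hz, and 14.2 ± 4.83 at 10 Hz. Its log2 fold changes against control were 0.26 ± 0.19, 0.28 ± 0.19, and 0.24 ± 0.19, none of which passed (adjusted p = 0.31, 0.24, and 0.52). Heyl was the least abundant member, with medians of 2.23 CPM in control, 3.71 CPM at 1 Hz, 4.67 CPM at 4 Hz, and 5.28 CPM at 10 Hz. The control libraries ranged from 1.31 to 8.58 CPM, so the groups overlapped, and the log2 fold changes of 0.42 ± 0.34, 0.61 ± 0.34, and 0.75 ± 0.34 did not pass (adjusted p = 0.36, 0.15, and 0.20). The highest control value was that of replicate 6, and the other 5 lay between 1.31 and 3.38 CPM. Without control replicate 6 Heyl passed at 1 Hz (0.92, adjusted p = 0.019), 4 Hz (1.11, adjusted p = 0.0043), and 10 Hz (1.25, adjusted p = 0.014). Hes1 and Heyl thus had log2 fold changes of opposite sign at 1 and 4 Hz, also when any 1 library was left out.

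Numb (chromosome 12, 83840808 to 83968997, minus strand, 11 exons in the canonical transcript of 36 annotated) rose at 1 Hz, as Jag1 did. Levels were 19.1, 21.9, and 26.2 CPM in control, 27.6, 30.3, and 32.6 CPM at 1 Hz, 21.7, 25.0, and 28.1 CPM at 4 Hz, and 18.2, 21.1, and 23.9 CPM at 10 Hz. All 6 libraries at 1 Hz lay above every control and every 10 Hz library. Numb rose by 0.43 ± 0.09 (log2, SE) at 1 Hz against control (adjusted p = 0.00073), whereas 0.15 ± 0.09 at 4 Hz and -0.09 ± 0.09 at 10 Hz did not pass (adjusted p = 0.18 and 0.61). It was lower at 10 Hz than at 1 Hz (-0.52 ± 0.09, adjusted p = 7.9e-05), lower at 4 Hz than at 1 Hz (-0.28 ± 0.09, adjusted p = 0.041), and lower at 10 Hz than at 4 Hz (-0.25 ± 0.09, adjusted p = 0.045). The last pair of calls lay near the threshold. Numb at 4 Hz against 1 Hz was lost when any 1 of 9 of the 12 libraries was left out (1 Hz replicates 3, 4, 5, and 6 and 4 Hz replicates 1 to 5, adjusted p of 0.052 to 0.11), and at 10 Hz against 4 Hz when any 1 of 8 was (4 Hz replicates 1, 3, 5, and 6 and 10 Hz replicates 1, 2, 3, and 4, adjusted p of 0.059 to 0.099).

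With the small RNA share as a covariate, 5 of the 17 calls passed. They were Jag1 at 10 Hz against control (-0.51, adjusted p = 0.031), Jag1 at 4 Hz (-0.84, adjusted p = 0.00018) and 10 Hz against 1 Hz (-1.09, adjusted p = 0.0073), and Notch3 (-0.63, adjusted p = 0.0063) and Numb (-0.27, adjusted p = 0.044) at 4 Hz against 1 Hz. The 12 others kept their direction without passing. Among them, Jag1 at 1 Hz against control had a log2 fold change of 0.58 (adjusted p = 0.34), Numb 0.37 (adjusted p = 0.38), and Notch1 0.26 (adjusted p = 0.76). At 10 Hz against 1 Hz the values were -0.48 for Numb (adjusted p = 0.068), -0.49 for Notch3 (adjusted p = 0.24), and -0.21 for Notch1 (adjusted p = 0.64), and at 10 Hz against 4 Hz -0.25 for Jag1 (adjusted p = 0.88) and -0.20 for Numb (adjusted p = 0.84). The 1 and 4 Hz libraries overlapped in this share, and all 3 calls between them passed with it.

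Ordered by mean TPM over the 24 libraries, which accounts for transcript length, the levels were 25.6 for Hes1, 21.8 for Jag2, 14.3 for Numb, 11.5 for Notch2, 10.1 for Notch3, 8.59 for Hey1, 6.04 for Notch1, 5.59 for Jag1, 4.17 for Dll1, and 1.62 for Heyl. Of the 9 pairs of neighbors in this order, 3 differed by more than the SD of their difference across libraries. These were Jag2 over Numb (higher in 21 of 24 libraries), Hey1 over Notch1 (22 of 24), and Dll1 over Heyl (24 of 24). The other neighbors did not differ beyond their spread. The count per TPM, a measure of the estimated length, varied with an SD (log2) of 0.42 for Dll1, 0.36 for Heyl, 0.28 for Jag2, and 0.26 for Numb, against a median of 0.090 over all genes. The order differed between conditions. Jag2 had the higher mean at 1 Hz (25.2 TPM, against 20.5 TPM for Hes1) and at 4 Hz (24.8 against 20.7 TPM), and at 1 Hz Jag1 (9.13 TPM) lay above Hey1 (8.98 TPM) and Notch1 (7.15 TPM). Hes1 had means (± SD, n = 6) of 31.3 ± 4.81 TPM in control, 20.5 ± 3.53 at 1 Hz, 20.7 ± 1.06 at 4 Hz, and 29.9 ± 4.57 at 10 Hz.

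The rest of the pathway was described with a list of 57 genes ordered by role, of which 46 passed the filter. The 11 others, among them the ligands Dll3, Dll4, Dlk1, and Dner and the targets Hes5, Hes7, and Hey2, had at most 3.35 CPM in any library, and none was at 0 in all libraries. At 1 Hz against control 13 of 46 rose and 5 fell, 39.1% of the list against 35.4% of all genes, and the list had a median of 0.08 (log2). At 4 Hz 11 rose and 7 fell, the same 39.1% against 39.4% of all genes, with a median of -0.04. At 10 Hz 0 of 46 passed, against 4.89% of all genes, with a median of -0.10. There were 11 at an unadjusted p below 0.05, with 1 gene passing by DESeq2 and 3 by limma on log2(TPM + 1). The shares of all genes under these 3 rules are not reported here. At 1 Hz, leaving out 1 Hz replicate 4, 5, or 6 reduced the count to 10.

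Genes of several roles rose, with Maml2 the largest change at both 1 and 4 Hz. Maml2, a Mastermind coactivator, rose by 1.72 ± 0.31 at 1 Hz (adjusted p = 0.00017) and by 1.78 ± 0.31 at 4 Hz (adjusted p = 7.0e-05), from a mean of 2.54 CPM in control to 8.18 and 8.75 CPM. Neurl1b, a Neuralized ubiquitin ligase that acts on ligands, rose by 1.02 ± 0.23 at 1 Hz and 0.73 ± 0.23 at 4 Hz, and its relative Neurl1a by 0.53 ± 0.12 and 0.33 ± 0.12. Neurl1b was low, with means of 1.66 CPM in control, 3.25 CPM at 1 Hz, and 2.72 CPM at 4 Hz. With counts thinned to the smallest library neither Neurl1b call passed (0.71 and 0.65, adjusted p = 0.073 and 0.094). Without the count filter its 4 Hz call was also lost (adjusted p = 0.066). Lfng, a Fringe glycosyltransferase that tunes which ligand a receptor answers to, rose by 0.88 ± 0.20 and 0.86 ± 0.20. Maml3 rose by 0.55 ± 0.15 at 1 Hz. At 4 Hz, Dlk2, a Delta-like protein, rose by 0.98 ± 0.36, and Hes6, a Hes family member known to oppose Hes1 and to favor differentiation, by 0.58 ± 0.11. With the small RNA share as a covariate 0 of the 46 genes passed at 1 Hz and 0 at 4 Hz against control. The share of all genes passing in that fit is not reported here. Maml2 then had 0.99 (adjusted p = 0.51) and 1.14 (adjusted p = 0.19), Lfng 0.49 (adjusted p = 0.65) and 0.49 (adjusted p = 0.43), and Neurl1b 0.49 (adjusted p = 0.73) and 0.25 (adjusted p = 0.79). At 1 Hz Neurl1a had 0.20 and Maml3 0.31, and at 4 Hz Dlk2 had 0.59 and Hes6 0.44 (adjusted p = 0.77, 0.73, 0.67, and 0.22).

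Cleavage genes passed for 4 of 10 at 1 Hz and 3 of 10 at 4 Hz, where 35.4% and 39.4% of all genes did, and genes of the nuclear complex for 4 of 7 and 3 of 7. Adam10, the protease of the first cut, fell by 0.38 ± 0.14 at 1 Hz (adjusted p = 0.032) and by 0.72 ± 0.14 at 4 Hz (adjusted p = 0.00021), and Adam17 by 0.30 ± 0.10 and 0.52 ± 0.10. The γ-secretase subunits Psen2 and Ncstn rose at 1 Hz (0.37 ± 0.14 and 0.25 ± 0.08). The list of cleavage genes had members in both directions at 1 Hz, 2 up and 2 down of 10, and 0 up and 3 down at 4 Hz. Ep300, an acetyltransferase of the nuclear complex, fell by 0.30 ± 0.09 and 0.46 ± 0.09, Mib1, the Mind bomb ubiquitin ligase, by 0.32 ± 0.11 and 0.37 ± 0.11, Snw1 by 0.21 ± 0.07 at 1 Hz, and Maml1 by 0.44 ± 0.09 at 4 Hz. With the small RNA share as a covariate the values at 1 and 4 Hz were -0.24 and -0.58 for Adam10, 0.0076 and -0.21 for Adam17, -0.10 and -0.27 for Ep300, and -0.17 and -0.22 for Mib1, with -0.07 for Snw1 at 1 Hz and -0.34 for Maml1 at 4 Hz (adjusted p of 0.17 to 0.99), so the sign of Adam17 turned at 1 Hz. Several of these calls were near the threshold. At 1 Hz against control, leaving out a single library ended the call of Adam10 (control replicates 5 and 6 and 1 Hz replicates 4, 5, and 6), Adam17 (control 3 and 6 and 1 Hz 5 and 6), Mib1 (control 1, 5, and 6 and 1 Hz 4, 5, and 6), and Snw1 (control 1 and 5 and 1 Hz 4, 5, and 6), with adjusted p up to 0.12, 0.070, 0.090, and 0.087. At 4 Hz it ended the call of Dlk2 (control 1, 2, 3, and 6 and 4 Hz 1, 2, and 6, adjusted p up to 0.083). Of 9 corepressors, 3 rose at 1 Hz and 3 rose and 1 fell at 4 Hz.

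**Figure D5:**
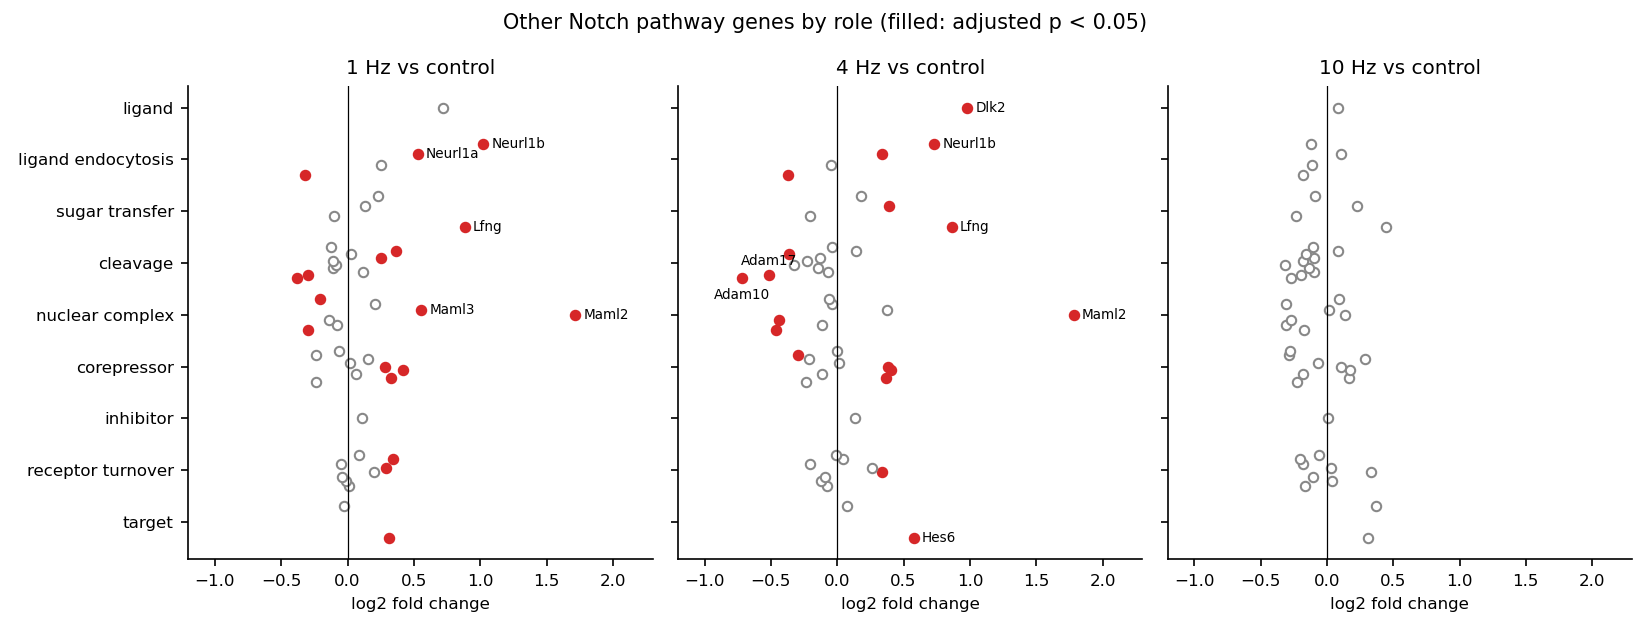
Log2 fold change against control (x axis) of 46 other Notch pathway genes grouped by role (y axis, points spread vertically within a role), with red filled points at an adjusted p below 0.05 and names at an absolute log2 fold change above 0.5. At 1 Hz 13 rose and 5 fell, at 4 Hz 11 rose and 7 fell, and at 10 Hz 0 passed.

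Between frequencies, 1 of 46 pathway genes was higher and 4 were lower at 4 Hz than at 1 Hz (12.3% of all genes passed), 1 higher and 11 lower at 10 Hz than at 1 Hz (36.3%), and 3 higher and 4 lower at 10 Hz than at 4 Hz (22.8%). Among the 5 genes at 4 Hz against 1 Hz were Poglut1, which adds glucose to Notch receptors (0.26 ± 0.08), Ncstn (-0.38 ± 0.08), Maml1 (-0.30 ± 0.08), and the ubiquitin ligase Nedd4 (-0.30 ± 0.08). For 10 Hz against 1 Hz, Maml2 (-1.58 ± 0.29), Neurl1b (-1.14 ± 0.23), Nedd4 (-0.54 ± 0.08), Maml3 (-0.54 ± 0.15), and Rbpj, the DNA-binding partner of the receptor domain (-0.51 ± 0.10), had the lowest log2 fold changes. Snw1 was the 1 gene that was higher (0.30 ± 0.07). At 10 Hz against 4 Hz Adam10 (0.45 ± 0.14), Adam17 (0.32 ± 0.10), and Ep300 (0.29 ± 0.09) were higher, and Maml2 (-1.64 ± 0.29), Neurl1b (-0.85 ± 0.23), Spen, a corepressor (-0.28 ± 0.10), and Nedd4 (-0.25 ± 0.08) were lower. Leaving out 1 library ended Poglut1 for 9 of 12 libraries (1 Hz replicates 1, 4, 5, and 6 and 4 Hz replicates 1 to 5), Maml1 for 1 Hz 5 and 4 Hz 1 and 4, and Nedd4 for 4 Hz 1, all at 4 Hz against 1 Hz. For 10 Hz against 4 Hz it ended Spen for 8 of 12 (4 Hz 3, 4, 5, and 6 and 10 Hz 1, 2, 3, and 5), Nedd4 for 7 (4 Hz 3, 4, and 5 and 10 Hz 1, 2, 3, and 4), Adam17 for 5 (4 Hz 4 and 6 and 10 Hz 1, 2, and 3), Adam10 for 2 (4 Hz 6 and 10 Hz 3), and Ep300 for 10 Hz 2. With 1 library left out, the count at 4 Hz against 1 Hz fell to 2 without 4 Hz replicate 1 and to 3 without 1 Hz replicate 5 or 4 Hz replicate 4, and the count at 10 Hz against 4 Hz fell to 4 without 4 Hz replicate 4 or 10 Hz replicate 1 and to 3 without 10 Hz replicate 2 or 3. With the small RNA share as a covariate the number of pathway genes passing went from 12 to 0 at 10 Hz against 1 Hz and from 7 to 0 at 10 Hz against 4 Hz, while 5 passed at 4 Hz against 1 Hz, with Poglut1, Ncstn, Maml1, and Nedd4 among them. For 10 Hz against 1 Hz the values were then -0.98 for Maml2, -0.68 for Neurl1b, -0.37 for Nedd4, -0.33 for Maml3, -0.27 for Rbpj, and 0.18 for Snw1 (adjusted p of 0.088 to 0.46). For 10 Hz against 4 Hz they were 0.33 for Adam10, 0.05 for Adam17, 0.12 for Ep300, -1.12 for Maml2, -0.43 for Neurl1b, -0.10 for Spen, and -0.08 for Nedd4 (adjusted p of 0.51 to 0.99).

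The genes whose levels most resembled those of each member over the 24 libraries were listed as a description. The search covered 9035 genes with a mean of at least 10 CPM, and the libraries share their conditions and the small RNA share described above. For Notch1 the closest gene was Neurl1a of the pathway list (Pearson r of log2 CPM = 0.89), followed by Ppp1r13l (0.88). For Jag1 they were Aplp2 (0.90) and Fermt2 (0.89), for Jag2 St6galnac4 (0.94) and Arhgef10l (0.93), and for Numb Ptgfrn (0.90) and Abhd2 (0.89). Hes1 was most like Zfp790 (0.90) and Fbxo22 (0.88), Notch2 like Col6a3 (0.85) and Nav1 (0.85), and Notch3 like Galnt2 (0.89) and Gtf2ird1 (0.89). The closest genes were less alike for Dll1 (Timm22, 0.73, and Tafazzin, 0.72), Hey1 (Fhl1, 0.73, and Tcf7, 0.72), and Heyl (Synpo2, 0.76, and Tcf7, 0.75).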

How the data were processed

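RNA sequencing of 24 C2C12 muscle tissues, 6 per condition, was analysed, with groups and replicate numbers from the sample titles. The authors processed reads with the nf-core/rnaseq pipeline on GRCm39 with Ensembl gene models, the release of which is not given in the sources used here. Tools in the submitters' processing notes are BWA 0.7.12-r1039, bedtools 2.25.0, STAR, and Salmon. The deposited values were Salmon estimated counts (expected counts without normalization, with 6.62% to 10.6% of values in a library not whole) and a further table of TPM, scaled by the authors within each library. Total counts of 4.09 to 15.2 M per library set the counting error. The study names a directional library kit, but whether counting used strand is not given, and the transgene was left out.

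Rounding gave whole counts. Genes were kept with filterByExpr by condition (13318 genes with 99.8% of counts), scaled by TMM, and tested with edgeR 4.0.16 (glmQLFit and glmQLFTest, limma 3.58.1, R 4.3.3) fitted jointly to the 24 libraries by condition alone, after a check on simulated data. P-values were adjusted by Benjamini-Hochberg over all tested genes. The standard error (SE) of a log2 fold change is its size over the square root of its F statistic, and SDs are between libraries. The study used DESeq2 with a fold limit, and DESeq2 1.42.0 was an alternative, beside size factors from DESeq2, total count scaling, no filter and a minimum mean of 5 CPM, limma on log2(TPM + 1), with or without a minimum mean of 1 TPM, and on log2(TPM + 0.1), only the 12 libraries compared, a replicate block, thinned counts, the log2 small RNA share as a covariate, and leaving out each library. On the log2(TPM + pseudocount) scale the change of low genes is understated.

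The 10 genes, the pathway and marker lists, and the small RNA measure were chosen with earlier results of these data known. Named pathway genes were, per comparison, up to 5 with the highest and up to 5 with the lowest log2 fold change among those that passed, with others named as examples after their values were seen. The genes most like a member were the 2 with the highest Pearson correlation of log2 CPM. Positions, exons, and sequences came from GENCODE M39 on GRCm39, which may not be the release used in the study. Some values and sequences are not reported here.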

Additional observations from a re-analysis of the deposited data

Results flagged for a closer look

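Heyl in control replicate 6 had 8.58 CPM, while the other 5 control libraries had 1.31 to 3.38 CPM, and the gap to the nearest library was 0.71 of the range of the group. Across the 40 groups of 10 genes and 4 conditions this was the 1 such value. Chance flags about 1 group in every 20, so 1 among 40 is not more than chance gives. Leaving this library out brought Heyl past the threshold at 1, 4, and 10 Hz against control (log2 fold changes of 0.92, 1.11, and 1.25).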

How the results depend on the processing

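Over the 60 tests on the 10 genes, DESeq2 size factors changed 0 calls and directions, and the DESeq2 Wald test changed 1 call, gaining Notch2 at 10 vs 1 Hz. The same count of changes was 3 with only the 12 libraries compared, 5 with the filter on low counts removed, 5 of 54 with a minimum mean of 5 CPM, 11 with scaling by total count, 10 with thinned counts, 16 by limma on log2(TPM + 1), and 20 with the small RNA share as a covariate. The 8 directions that turned with the covariate, all of uncalled values, are among those below. The cause was not tested. Shares of all genes passing are given above for the fold limit of the study, and are not reported here for the other alternatives.

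Under the fold limit of the study, members passing were 2 (1 Hz vs control), 0 (4 Hz and 10 Hz vs control), and 0 (10 vs 4 Hz), and pathway genes 5 (1 Hz vs control), 7 (4 Hz vs control), 0 (4 vs 1 Hz), 5 (10 vs 1 Hz), and 2 (10 vs 4 Hz). With the small RNA share as a covariate, members passing were 0 (1 Hz and 4 Hz vs control), 1 (10 vs 1 Hz), and 0 (10 vs 4 Hz), and pathway genes 0 in these 4 comparisons and 1 (10 Hz vs control). Signs then turned for Jag2 (-0.053 at 1 Hz vs control, -0.051 at 4 Hz vs control, 0.0018 at 4 vs 1 Hz, and 0.0013 at 10 vs 1 Hz), Adam17 (0.0076 at 1 Hz vs control), Hey1 (0.13 at 10 vs 1 Hz and 0.097 at 10 vs 4 Hz), Notch2 (0.0025 at 10 vs 4 Hz), and Notch3 (0.14 at 10 vs 4 Hz).

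By limma on log2(TPM + 1), members passing were 3 (4 Hz vs control), 0 (10 Hz vs control), and 1 (10 vs 4 Hz), and pathway genes 7 (1 Hz vs control), 3 (10 Hz vs control), and 8 (4 vs 1 Hz). Signs turned for Notch1 (-0.011), Jag2 (0.23), and Hes1 (-0.066) at 10 Hz vs control, Hey1 (-0.035 at 4 vs 1 Hz), Heyl (-0.030 at 10 vs 1 Hz and -0.11 at 10 vs 4 Hz), and Notch2 (0.049 at 10 vs 4 Hz). With a pseudocount of 0.1 the counts were alike but for 9 pathway genes at 4 vs 1 Hz, and the turned values were -0.0089, 0.24, -0.068, -0.038, -0.024, -0.19, and 0.054 in that order. Without the TPM filter the turned values were those of log2(TPM + 1), with 0 members at 10 Hz vs control, 1 at 4 vs 1 Hz, and 1 at 10 vs 4 Hz, and with 7, 1, and 1 pathway genes at 1 Hz vs control, 10 Hz vs control, and 10 vs 4 Hz. The median over all genes at 4 Hz vs control was -0.16 by limma on log2(TPM + 1) and -0.11 with scaling by total count, against -0.01.

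Scaling by total count gave 2 members at 4 Hz vs control and 1 pathway gene at 10 Hz vs control, and turned Notch2 (-0.0015 at 1 Hz vs control), Hes1 (-0.0094 at 10 Hz vs control), Hey1 (0.021 at 10 vs 1 Hz and 0.011 at 10 vs 4 Hz), Notch2 (0.021), Notch3 (0.038), and Dll1 (0.022), the last 3 at 10 vs 4 Hz. Without the count filter, 0 members passed at 10 Hz vs control, 2 pathway genes at 4 vs 1 Hz, and 3 at 10 vs 4 Hz, and Jag2 turned (0.010 at 10 Hz vs control). A minimum mean of 5 CPM, which leaves out Heyl, turned Jag2 (0.0027 at 10 Hz vs control and 0.013 at 4 vs 1 Hz) and Hey1 (0.013 at 10 vs 1 Hz). With only the 12 libraries compared, 0 members passed at 10 Hz vs control and 4 pathway genes at 10 vs 4 Hz. Thinned counts gave 0 members at 10 Hz vs control, 1 member and 11 pathway genes at 10 vs 4 Hz, and turned Notch1 (-0.013), Jag2 (0.019), and Dll1 (-0.036) at 10 Hz vs control, Jag2 (0.013) and Hey1 (-0.061) at 4 vs 1 Hz, and Notch3 (0.00097) at 10 vs 4 Hz. DESeq2 gave 1 pathway gene at 10 Hz vs control.

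Libraries with the same replicate number deviated together little or not at all (correlations of -0.18 to 0.36, with 0 to 2 of 6 libraries closest to their own number). The mean correlation of a pair of conditions was -0.058 to 0.096 for equal numbers and -0.019 to 0.012 for unequal numbers. These values do not settle whether the numbers pair the samples weakly. With the replicate number as a block, 4 members passed at 4 Hz vs control. Gained there were Notch1 (0.30, adjusted p = 0.04999), Notch3 (-0.34, adjusted p = 0.040), and Heyl (0.69, adjusted p = 0.038). At 10 vs 1 Hz Notch2 (-0.29, adjusted p = 0.025) and Dll1 (0.44, adjusted p = 0.041) were gained. Of the pathway genes, 1 passed at 10 Hz vs control and 13 at 10 vs 4 Hz.

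Leaving out each library in turn gave 10 to 18 pathway genes at 1 Hz vs control, 1 to 3 members at 4 Hz vs control, 0 to 1 members and 0 to 2 pathway genes at 10 Hz vs control, 2 to 6 pathway genes at 4 vs 1 Hz, and 1 to 3 members and 3 to 10 pathway genes at 10 vs 4 Hz. Signs turned within these ranges for Jag1 at 4 Hz vs control (-0.13 to 0.011), for Jag2 (-0.069 to 0.094), Dll1 (-0.029 to 0.18), and Hes1 (-0.031 to 0.10) at 10 Hz vs control, for Jag2 (-0.093 to 0.038) and Hey1 (-0.059 to 0.090) at 4 vs 1 Hz, for Hey1 at 10 vs 1 Hz (-0.19 to 0.12), and for Notch2 (-0.093 to 0.034), Notch3 (-0.10 to 0.066), Dll1 (-0.14 to 0.062), Hey1 (-0.22 to 0.096), and Heyl (-0.035 to 0.27) at 10 vs 4 Hz. These were values that had not passed. Thinning to the smallest library ended 4 of the 17 calls, of Jag1 at 10 Hz vs control and 10 vs 4 Hz and of Numb at 4 vs 1 Hz and 10 vs 4 Hz.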
